A study of Mus musculus with 16 samples.

Results

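The 4 mouse tropomyosin genes, Tpm1, Tpm2, Tpm3 and Tpm4, are described here in whole liver. They were taken by gene symbol from the 30463 genes of the authors' deposited table, and all 4 had an adjusted p-value there, as did 16288 genes in all. The study sequenced RNA from liver of 16 wild-type C57BL/6N mice aged 14 weeks, in 4 groups of 4. The groups were DEN with high fat diet (HFD-DEN), vehicle with high fat diet (HFD-Vehicle), DEN with control diet (CD-DEN) and vehicle with control diet (CD-Vehicle). DEN, or diethylnitrosamine, is a liver carcinogen. It or vehicle was injected at 2 weeks of age, and the high fat diet, labelled 60%, began at 6 weeks of age. Albumin (Alb) had the highest mean normalized count of the hepatocyte markers, 1079857 in the authors' deposited table, so the tissue matches its label.

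The table holds the result of 1 comparison and does not name its sides. Fold changes are therefore given by sign: a gene above 0 on the log2 scale was higher on the positive side of that unnamed comparison. The columns of single libraries carry codes that match no sample label, so no value per mouse and no effect of diet or DEN is given for any gene. The error of each fold change is the authors' standard error (SE). The genes were chosen by the log2 fold change and adjusted p-value of Tpm2 in this comparison, which were already known, so the values of the members are a description and not a test.

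Tropomyosins are coiled-coil proteins that pair and lie end to end along actin filaments. They set which other proteins reach the filament, among them myosins, troponins, caldesmon, cofilin and the tropomodulins that cap its slow-growing end. Tropomyosin genes can make several isoforms through alternative promoters or exons, some found in muscle and some in the cytoskeleton of most cells. How many are annotated differs between the 4 genes. Tpm1 encodes alpha tropomyosin, Tpm2 beta tropomyosin, Tpm3 a form of slow muscle together with widespread cytoskeletal forms, and Tpm4 a cytoskeletal form. The counts were made per gene, so isoforms cannot be told apart.

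The messages of the 4 genes are alike, and the stretch of coding sequence in which they are most alike is shown because it bears on whether reads of one gene could be counted for another. It is the 60-base window with the most identical positions, 48 of 60, in an alignment of 1 coding sequence per gene from GENCODE M21 transcripts on GRCm38. Capitals mark bases that differ from Tpm2.
Tpm1: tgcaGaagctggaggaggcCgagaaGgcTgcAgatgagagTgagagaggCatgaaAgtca
Tpm2: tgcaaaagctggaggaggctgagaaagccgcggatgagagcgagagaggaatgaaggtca
Tpm3: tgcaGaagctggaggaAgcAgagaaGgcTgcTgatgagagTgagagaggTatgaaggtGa
Tpm4: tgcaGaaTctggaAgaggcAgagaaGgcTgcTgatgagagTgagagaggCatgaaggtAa
Even here Tpm1 differed from Tpm2 at 8 bases, Tpm3 at 9 and Tpm4 at 10. The window covers coding bases 329 to 388 of Tpm1, Tpm2 and Tpm3 and bases 221 to 280 of Tpm4.

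The coding sequences chosen had 855 bases for Tpm1, Tpm2 and Tpm3 and 747 for Tpm4, whose annotated form is the short one. Among complete annotated coding sequences, Tpm1 had 16 different ones, Tpm3 had 5, Tpm2 had 3 and Tpm4 had 1. Over the whole coding sequence, Tpm2 was 77.7% identical to Tpm1, 76.1% to Tpm3 and 65.9% to Tpm4. The longest run of identical bases between Tpm2 and another member in the alignment was 35 bases, with Tpm1. Of the 3087 different 50-base words in the annotated Tpm2 transcripts, 0 occur in the annotated transcripts of any other gene, and the same holds for the 6838 words of Tpm1. Tpm3 shares 23.2% of its 6271 words with other genes, all of that share with Tpm3-rs7, a near copy on chromosome 14. Tpm4 shares 15.7% of its 2154 words, with Gm7809 on the same strand and with Gm26586, which overlaps Tpm4 on the opposite strand. The values of Tpm3 and Tpm4 are uncertain to that extent, since the sources used here do not give the strand and multi-mapping settings of the counting. The authors' deposited table gives Tpm3-rs7 itself a mean normalized count of 1.48, beside 746.8 for Tpm3.

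Tpm2 was the only one of the 4 genes with a large fold change. The authors' deposited table puts it at 2.50 ± 0.29 (log2 fold change, SE), which is 5.65-fold higher on the positive side, with a 95% interval of 3.80-fold to 8.39-fold. The table lists an adjusted p-value of 1.41e-14 for it. Tpm2 (ENSMUSG00000028464) lies on the minus strand of chromosome 4 from 43514711 to 43523765 in GRCm38, and no other annotated gene overlaps it. Among all 16288 genes with an adjusted p-value, its log2 fold change ranked 23 from the top and its p-value ranked 12.

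Tpm1 came next, at a much smaller value. The authors' deposited table puts it at 0.33 ± 0.15 (log2 fold change, SE), or 1.26-fold, with a 95% interval of 1.03-fold to 1.54-fold. The unadjusted p-value listed was 0.0238 and the adjusted one 0.173, so Tpm1 was not called at 0.05. Tpm1 (ENSMUSG00000032366) lies on the minus strand of chromosome 9 from 67022590 to 67049406.

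Tpm4 and Tpm3 were close to no difference. By the authors' deposited table, Tpm4 (ENSMUSG00000031799, plus strand of chromosome 8 from 72134975 to 72153142) was at a log2 fold change of 0.14 ± 0.21 (SE, adjusted p = 0.787). Its 95% interval ran from 0.828-fold to 1.47-fold, so differences of that size in either direction lie within the error. Tpm3 (ENSMUSG00000027940, plus strand of chromosome 3 from 90072649 to 90100902) was at -0.04 ± 0.10 in the authors' deposited table (SE, adjusted p = 0.889) on the log2 scale, with an interval of 0.848-fold to 1.12-fold. Tpm3 had the narrowest interval of the 4.

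Counted over the family, 1 of 4 tropomyosin genes was called positive and 0 negative at an adjusted p-value below 0.05. Over all tested genes, 3.67% were called positive and 2.90% negative, 6.57% in either direction. Because the genes were chosen with this comparison known, nothing is read from that count. The log2 fold change of Tpm2 exceeded that of Tpm1 by 2.17, that of Tpm4 by 2.36 and that of Tpm3 by 2.54. These differences rest on the value by which Tpm2 was chosen, so they too are a description and not a test.

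**Figure D1:**
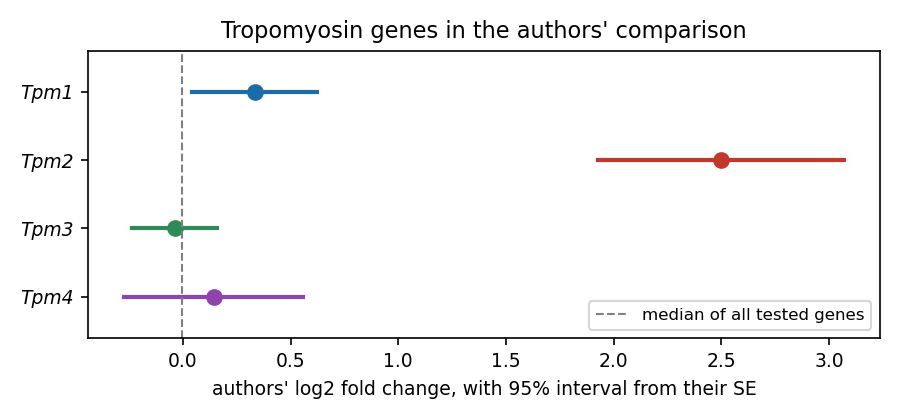
Log2 fold change of each tropomyosin gene in the authors' deposited table (points), with 95% intervals from the authors' SE (lines) and the median of all tested genes (dashed line, -0.0044). Tpm2 sits at 2.50, Tpm1 at 0.33, Tpm4 at 0.14 and Tpm3 at -0.04.

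The authors' SE of Tpm2 was also wide for a gene of its count. It was 0.29, against a median of 0.15 among the 1122 genes with a mean normalized count of 0.8 to 1.25 times that of Tpm2, and 92.5% of those genes had a smaller SE. Tpm4 was alike in this respect, with a SE of 0.21 against a median of 0.12 over 1545 genes, and 89.4% of them smaller. Tpm1, at 0.15 against 0.11, had a SE wider than 75.6% of 1420 such genes, and Tpm3, at 0.10 against 0.11, was wider than 42.0% of 1334. Whether the wide SE of Tpm2 and Tpm4 reflects spread between mice cannot be told without values per mouse.

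**Figure D2:**
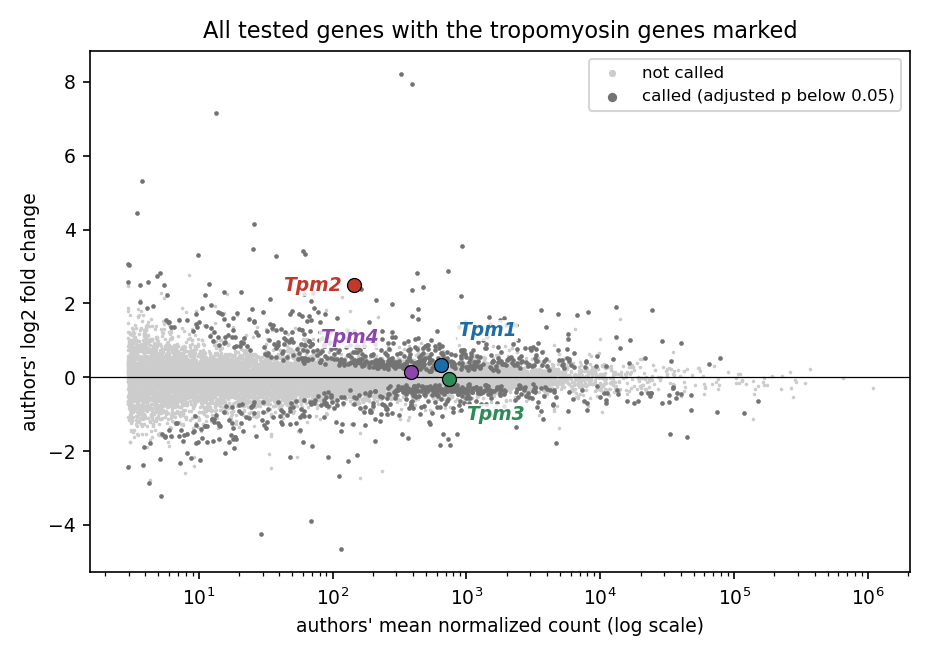
Log2 fold change against mean normalized count (log axis) for the 16288 tested genes of the authors' deposited table, with called genes in dark grey and the tropomyosin genes in colour. Tpm2, at a mean normalized count of 144.8, lies above most genes with similar counts and the other 3 lie within the main band.

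The gene with the large fold change had the lowest level of the 4 in the mean over libraries. The order on either side of the comparison alone is not known. The authors' mean normalized count over their libraries was 746.8 for Tpm3, 648.9 for Tpm1, 388.5 for Tpm4 and 144.8 for Tpm2. Tpm2 thus made up 7.51% of the normalized counts of the family. These counts are not corrected for length.

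Levels of different genes can be compared only per length, and the length depends on which transcripts the liver makes. Per kilobase (kb) of merged exons, the level was 176.4 normalized counts for Tpm4, 122.7 for Tpm3, 100.1 for Tpm1 and 49.8 for Tpm2. With the longest transcript as the length the order became Tpm3 (314.6), Tpm1 (224.5), Tpm4 (182.6) and Tpm2 (66.6). GENCODE M21 annotates 21 transcripts for Tpm1, 16 for Tpm3, 6 for Tpm2 and 2 for Tpm4, and the merged exons of Tpm1 (6485 bases) and Tpm3 (6085 bases) are much longer than any one of their transcripts. In this mean over libraries, Tpm2 was lowest per kb with every length tried, while the order of the other 3 depended on the length. The deposited mean has no error over mice, so neighbours in this order cannot be tested.

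**Figure D3:**
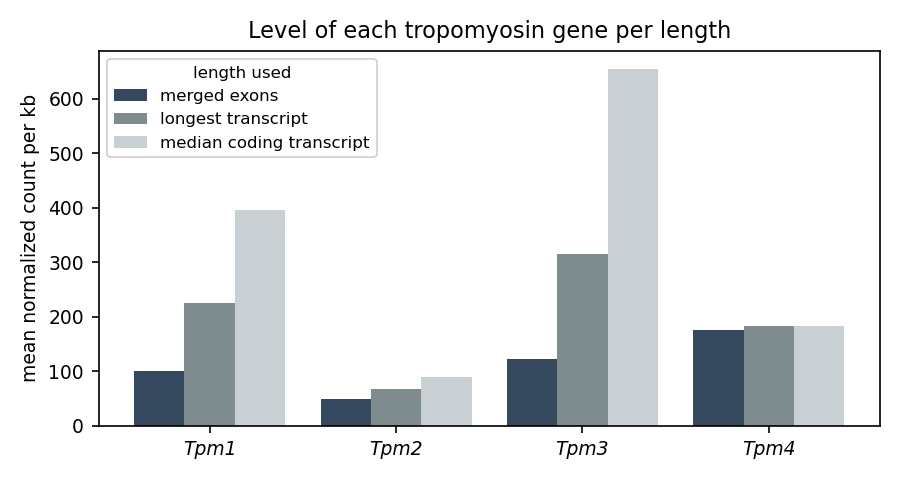
Authors' mean normalized count per kb for each tropomyosin gene, with 3 choices of length (bars). Tpm2 has the lowest bar of the 4 genes for each choice, and Tpm4 leads only with merged exons.

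The called genes next to Tpm2 in fold change belong to several families. Of 772 genes called on the authors' own adjusted p-value whose mean normalized count reached 100, Tpm2 had the 6th highest log2 fold change. Among those above it, from the authors' deposited table, were Cidec, a lipid droplet protein gene, at 2.88 ± 0.54 (log2, SE), and Mup9, a major urinary protein gene, at 3.55 ± 0.38. The 3 next below were Fitm1, an endoplasmic reticulum protein gene of lipid droplet formation, at 2.46 ± 0.26, Osbpl3, an oxysterol-binding protein family gene, at 2.38 ± 0.36, and Clstn3 at 2.36 ± 0.25 in the authors' deposited table (log2, SE). Likeness here means a small difference in log2 fold change over 1 comparison, 0.042 for Fitm1 and 1.05 for Mup9, and says nothing about control or function. Mup9 belongs to a family of closely related genes, and how far its reads could be shared with them was not measured, so its value is uncertain.

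Genes of the actin filament, of a transcription factor with its targets and of tropomyosin splicing did not reach the fold change of Tpm2 in either direction. Tpm2 was chosen by its value in this comparison, so that difference is a description and not a test. Of 102 tested genes in 10 lists, each gene counted once, 2 were called positive (Actg1 and Ccn1) and 3 negative (Actn4, Csrp1 and Ptbp3), against 3.67% and 2.90% of all tested genes. Their median log2 fold change was -0.03, beside -0.0044 for all tested genes. Of all 16288 tested genes, 8019 were above 0 and 8269 below. At an unadjusted p-value below 0.05 there were 14 of the 102, among 3102 of all 16288 tested genes. In the 6 lists with 0 called, that count was 1 of 4 tropomodulins and leiomodins, 1 of 3 troponins, 0 of 6 caldesmon, calponin and transgelin genes, 0 of 16 myosin II genes, 1 of 15 severing and capping genes and 3 of 19 nucleation genes. The highest value among the 102 was 1.23, for Ccn1, and the lowest -1.18, for the troponin gene Tnnt2, which was not called.

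Tropomodulins and leiomodins, which cap or nucleate the slow-growing filament end, had 0 of 4 tested genes called and a median of -0.53. From the authors' deposited table, Tmod3, which had the highest count of them, was at -0.05 ± 0.10 (log2, SE, adjusted p = 0.842) with a mean normalized count of 495.2. Lmod1, a smooth muscle leiomodin, was at -0.94 ± 0.46 in the authors' deposited table (log2, SE, adjusted p = 0.230) with a mean normalized count of 10.6. Of 7 listed genes, 3 had no adjusted p-value, with mean normalized counts of 0.902 to 1.94.

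Troponins, the calcium switch that works through tropomyosin in striated muscle, had 0 of 3 tested genes called and a median of -0.08. Per the authors' deposited table, Tnnc1, the one with the highest count, had a mean normalized count of 18.2 and a log2 fold change of 0.38 ± 0.30 (SE, adjusted p = 0.542). Caldesmon, calponins and transgelins, which bind actin alongside tropomyosin in smooth muscle and other cells, had 0 of 6 called and a median of -0.13. Cald1, the caldesmon gene, was at 0.09 ± 0.17 in the authors' deposited table (log2, SE, adjusted p = 0.846) at a mean normalized count of 3984.

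Among actins, 3 of 4 tested genes were above 0 on the log2 scale, 1 was called, and the median was 0.49. The authors' deposited table shows that Actg1, the cytoplasmic gamma actin gene, was at 1.06 ± 0.36 (log2, SE, adjusted p = 0.0472). Actb, the cytoplasmic beta actin gene, was at 0.66 ± 0.24 in the authors' deposited table (adjusted p = 0.0669) with a mean normalized count of 9712, and was not called. Both are uncertain, because actin genes are closely alike and have processed pseudogenes, and how far reads could be shared was not measured. The smooth muscle actin genes Acta2 at 0.32 ± 0.32 and Actg2 at -0.99 ± 0.79 in the authors' deposited table (log2, SE) had adjusted p-values of 0.648 and 0.542. The call of Actg1 was lost when the p-values of the authors' deposited table were adjusted over every gene in it (adjusted p = 0.0871), at a threshold of 0.01, and under 2 further alternatives.

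Among myosin II genes, the motors that pull on tropomyosin-coated filaments, 0 of 16 were called and the median was -0.02. By the authors' deposited table, Myh9, the main non-muscle heavy chain gene, was at 0.04 ± 0.16 (log2, SE, adjusted p = 0.925) with a mean normalized count of 3729. Of 12 actin cross-linkers 1 was called, Actn4, the alpha-actinin 4 gene, at -0.28 ± 0.07 in the authors' deposited table (log2, SE, adjusted p = 0.00457), and the list median was -0.10. Severing, capping and monomer-binding genes had 0 of 15 called and a median of 0.03. Dstn, the destrin gene, had the highest count of them and was at 0.10 ± 0.11 in the authors' deposited table (log2, SE, adjusted p = 0.702). Filament nucleation genes, which are the Arp2/3 complex, formins and others, had 0 of 19 called, with 15 of 19 below 0 and a median of -0.16. Arpc2, the one with the highest count, was at -0.05 ± 0.06 in the authors' deposited table (log2, SE, adjusted p = 0.759).

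Serum response factor (SRF) and its coactivators, the myocardin-related transcription factors, drive many actin and smooth muscle genes. Of 23 tested genes of that list, 2 were called positive and 1 negative, with a median of 0.08. From the authors' deposited table, Ccn1, a secreted matrix protein gene, was at 1.23 ± 0.21 (log2, SE, adjusted p = 1.61e-06) and Csrp1, a LIM domain protein gene, at -0.53 ± 0.16 (log2, SE, adjusted p = 0.0275). The call of Csrp1 was lost under the same 4 alternatives as that of Actg1. Srf was at 0.15 ± 0.13 in the authors' deposited table (log2, SE, adjusted p = 0.604), and Ccn2, a relative of Ccn1, was at -0.86 ± 0.37 (log2, SE, adjusted p = 0.162). Actg1, Actb and other genes of this list also stand in lists above.

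RNA-binding proteins that choose tropomyosin exons are listed here for splicing, although the data hold no exon counts. Per the authors' deposited table, of 11 tested, 1 was called, Ptbp3, a polypyrimidine tract-binding protein gene, at -0.47 ± 0.10 (log2, SE, adjusted p = 0.000414). Its relative Ptbp1 was at 0.05 ± 0.12 in the authors' deposited table (adjusted p = 0.881) and Celf1, which had the highest count of the list, at -0.02 ± 0.05 (adjusted p = 0.899). With the test statistic divided by its median absolute deviation over all genes, Ccn1 was the only 1 of these 102 genes still called.

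**Figure D4:**
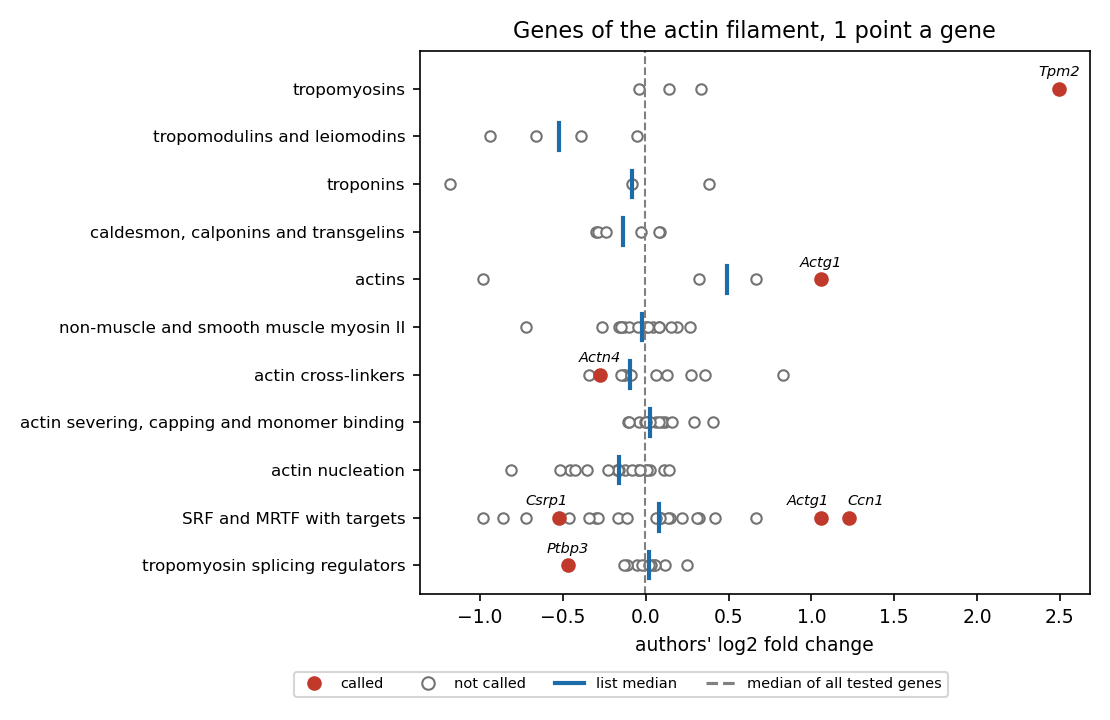
Log2 fold change of the tropomyosin genes and of each tested gene in 10 lists of actin filament and related genes, in the authors' deposited table. Red points are called genes, blue bars list medians and the dashed line the median of all tested genes. Tpm2 at 2.50 stands to the right of every other point, of which the highest is Ccn1 at 1.23. Tpm2 was chosen by its value in this comparison.

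Tropomyosins are abundant in muscle, so marker genes of muscle and of the other cell types of liver were read in the same comparison. In whole tissue, fewer cells of a type and less RNA per cell cannot be told apart. Of 81 tested marker genes, each counted once, 3 were called positive and 2 negative, against 3.67% and 2.90% of all tested genes. Below an unadjusted p-value of 0.05 were 17 of the 81, among 3102 of all 16288 tested genes. With shares that low, 0 called in a short list is not read as no change. Smooth muscle markers had 0 of 9 genes called (1 of 9 at an unadjusted p-value below 0.05), with log2 fold changes from -0.99 to 0.32 and a median of -0.26. Their mean normalized counts summed to 293.7 over 9 genes and none was listed at 0. The authors' deposited table shows that Myh11, the smooth muscle myosin heavy chain gene, was at -0.26 ± 0.33 and Tagln, the transgelin gene, at 0.08 ± 0.32 (log2, SE), with adjusted p-values of 0.741 and 0.936. Smtn, the smoothelin gene and the one with the highest count, was at 0.15 ± 0.19 in the authors' deposited table (log2, SE, adjusted p = 0.739).

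Skeletal and cardiac muscle markers were near absent. Of 12 with values, 10 had mean normalized counts of 2.23 or lower and no adjusted p-value, among them Ckm, muscle creatine kinase, at 0.253 and Acta1, skeletal actin, at 0.434. The other 2 were Mylpf at 0.18 ± 0.34 and Ttn at 0.52 ± 0.37 in the authors' deposited table (log2, SE), neither called, and the 12 genes together had a mean normalized count of 25.1. Stellate cell and myofibroblast markers had 0 of 18 called, 0 of them at an unadjusted p-value below 0.05 either, and a median of 0.04. Dcn, the decorin gene and the one with the highest count, was at -0.14 ± 0.19 in the authors' deposited table (log2, SE, adjusted p = 0.772) and the collagen gene Col1a1 at 0.43 ± 0.28 (log2, SE, adjusted p = 0.420).

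Cholangiocyte markers, keratins among them, had 8 of 8 tested genes above 0, beside 8019 of all 16288, and a median of 0.43. At an unadjusted p-value below 0.05 there were 2 of the 8. By the authors' deposited table, 1 of the 8 was called, Krt8 at 0.91 ± 0.16 (log2, SE, adjusted p = 1.52e-06), a keratin gene that hepatocytes express too. Krt19, which marks bile duct cells more narrowly, was at 0.50 ± 0.34 in the authors' deposited table (log2, SE, adjusted p = 0.446) with a mean normalized count of 13.2. Krt18, the partner keratin of Krt8 and the gene with the highest count of the list, was at 0.43 ± 0.22 in the authors' deposited table (log2, SE, adjusted p = 0.258). The part of these markers in the fold change of Tpm2 was not tested.

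Platelet and megakaryocyte markers, cells in which Tpm4 is abundant, had 0 of 6 called, a median of -0.27 and a summed mean normalized count of 117.0 over 8 genes. Itga2b, an integrin gene of platelets, was at -0.16 ± 0.29 in the authors' deposited table (log2, SE, adjusted p = 0.830). Erythroid markers had 0 of 7 called and a median of -0.23, and the beta globin gene Hbb-bs, which has a close copy and is uncertain for that reason, was at 0.46 ± 0.33 in the authors' deposited table (log2, SE, adjusted p = 0.486). At an unadjusted p-value below 0.05 there were 0 platelet and 0 erythroid markers. Endothelial markers had 0 of 10 called (2 of 10 at an unadjusted p-value below 0.05), with 9 of 10 below 0 and a median of -0.29. Stab2, a scavenger receptor gene of liver sinusoids, was at -0.10 ± 0.17 in the authors' deposited table (log2, SE, adjusted p = 0.806).

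Kupffer cell and macrophage markers had 10 of 10 genes below 0, beside 8269 of all 16288, and a median of -0.50. At an unadjusted p-value below 0.05 there were 7 of 10, among 3102 of all 16288 tested genes, and 1 was called. It was Timd4, a receptor gene of resident Kupffer cells, at -0.76 ± 0.26 in the authors' deposited table (log2, SE, adjusted p = 0.0494). That call was lost under 5 of the 7 alternatives, with p-values of the authors' deposited table adjusted over every gene in it (adjusted p = 0.0912), at a threshold of 0.01, with centring on the median (0.0516), with the Benjamini-Yekutieli adjustment (0.508) and with the statistic divided by its median absolute deviation (0.622). Marco, a scavenger receptor gene with the highest count of the list, was at -0.62 ± 0.52 in the authors' deposited table (log2, SE, adjusted p = 0.565).

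Hepatocyte markers had 1 of 11 called, the fetuin gene Ahsg at -0.64 ± 0.14 in the authors' deposited table (log2, SE, adjusted p = 0.000367), and a median of -0.20. The call of Ahsg was lost when the statistic of the authors' deposited table was divided by its median absolute deviation (adjusted p = 0.118). Alb, the albumin gene, was at -0.29 ± 0.21 in the authors' deposited table (log2, SE, adjusted p = 0.484). Of 3 tested adipocyte markers 2 were called positive in the authors' deposited table, Cfd, the adipsin gene, at 7.93 ± 0.69 (log2, SE, adjusted p = 2.60e-26) and Cidec. The other tested marker, Adrb3, was not called, at -0.25 ± 0.35 in the authors' deposited table (log2, SE, adjusted p = 0.769) with a mean normalized count of 77.1. The adipocyte markers Adipoq, Retn and Plin1 had mean normalized counts of 0.387, 0.558 and 0.439 in the authors' deposited table and no adjusted p-value.

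**Figure D5:**
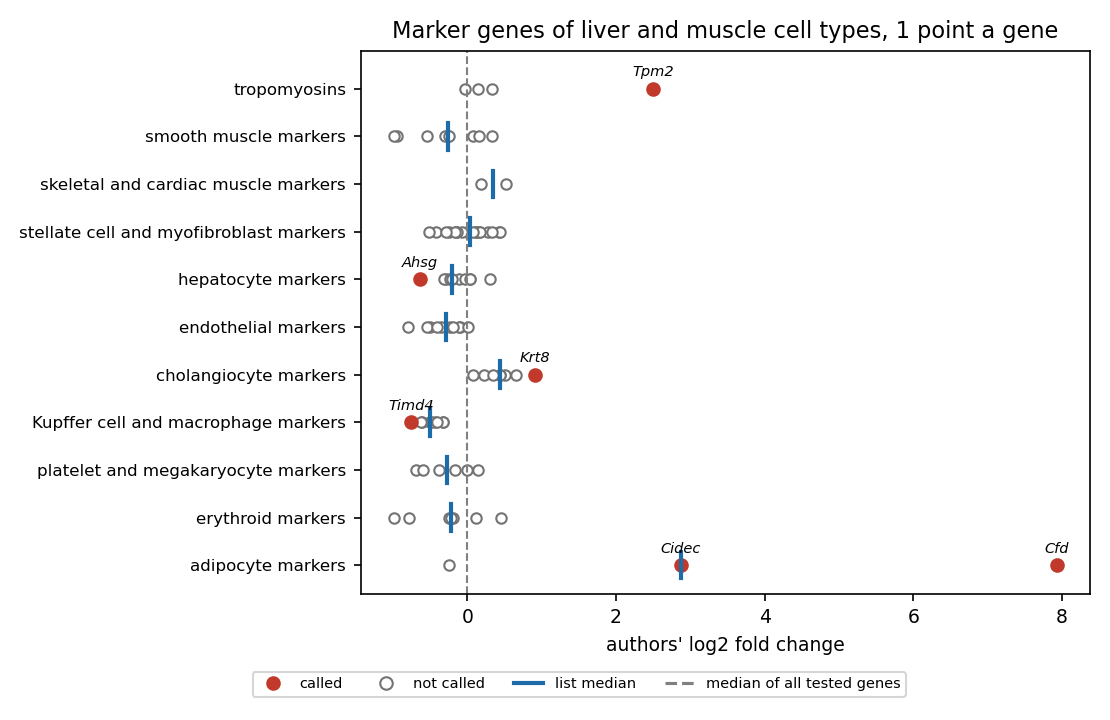
Log2 fold change of the tropomyosin genes and of each tested marker gene of 10 cell types in the authors' deposited table. Red points are called genes, blue bars list medians and the dashed line the median of all tested genes. The smooth muscle markers lie between -0.99 and 0.32, and Tpm2 lies at 2.50.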

How the data were processed

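Whole liver RNA was made into stranded mRNA libraries and sequenced, per the labels' protocols. The submitters' processing notes name FastQC, Trimmomatic, HISAT2, HTSeq 0.11.1 and the genome GRCm38, with no role or order. Per the file headers, each gene in the deposited table has the authors' mean normalized count (unit: signal), log2 fold change and its SE (log2 scale), test statistic (a score), p-value and adjusted p-value. The tool and model behind it are stated in none of these sources. The statistic was checked and is the fold change divided by its SE. Benjamini-Hochberg adjustment over the 16288 genes that have an adjusted p-value gives back that column, and each of these genes has a mean of 2.95 or more. The 16 columns of single libraries match no label and were used in no step, so depth per sample cannot be given and the planned count test of diet and DEN was not run.

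Genes with an adjusted p-value below 0.05 count as called, and what a p-value measures is set by the authors' model. Intervals are 95% normal intervals from the authors' SE. Positions, transcripts and lengths came from GENCODE M21, matched by Ensembl identifier for 30388 of 30463 genes. For Tpm2 the longest complete coding sequence was used, and for each other member the one most like it (Biopython 1.88), aligned with mafft 7.526. Words of 50 bases were compared with all annotated transcripts on both strands. Adjustment steps in Python 3.11.15 with scipy 1.17.1 were tested on simulated data. Other thresholds, adjustments, a filter on low counts, centring and other gene lengths were tried as alternatives.

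The members and the 20 lists were chosen with earlier results of these data known. Named are the members, the called genes of each list (at most 6), the gene with the highest count in each list and the 3 called genes on each side of Tpm2, of which 1 is not reported here. Other named genes were chosen after their values were seen. Of 218 list symbols, 12 had no match and were not analysed here.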

Additional observations from a re-analysis of the deposited data

How the results depend on the processing

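No paired analysis was possible because the library columns carry no sample label, and for the same reason the planned fits to counts (with the replicate number as a block, other size factors, no filter on low counts, or a replicate left out) were not run. Tpm2 was the 1 tropomyosin gene called under all 7 alternatives to the calls (adjusted p from 1.21e-14 to 3.48e-06). Tpm1, with adjusted p from 0.141 to 1.0, Tpm3 and Tpm4 were called under none. All 7 reuse the authors' values by which Tpm2 was chosen, so its call under them is a description and no further support. Centring moved each log2 fold change by 0.0044. Of the actin filament and related genes, 5 were called, against 3 at a threshold of 0.01, 3 with adjustment over every gene, 3 with the Benjamini-Yekutieli adjustment and 1 with the statistic divided by its median absolute deviation (1.44). There were 7 at a threshold of 0.10 (3 positive and 4 negative) and 5 with p-values adjusted again over the 9315 genes whose mean normalized count reached 100 (1 positive and 4 negative). Over all genes, 1070 were called, against 491, 768, 389 and 142 under those alternatives, 1588 at a threshold of 0.10, 847 with the new adjustment over those 9315 genes and 1065 with centring. Calls of Actg1, Csrp1 and Timd4 were lost under each of those 4, and Timd4 also with centring. Of the cell marker genes 5 were called, against 3 with the divided statistic. The level per kb was 224.5 for Tpm1, 66.6 for Tpm2, 314.6 for Tpm3 and 182.6 for Tpm4 with the longest transcript, and 395.2, 88.8, 655.7 and 182.6 with the median coding transcript, in place of 100.1, 49.8, 122.7 and 176.4 with merged exons, because the lengths differ. No spread over mice could be set beside these values.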

Other observations

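The tested genes beside Tpm2 on chromosome 4 had lower log2 fold changes than Tpm2. Since Tpm2 was chosen by its value, this too is a description and not a test. By the authors' deposited table, of 6 tested genes within 50 kb, a window chosen after the data were seen, 1 was called, Ccdc107 at 0.44 ± 0.13 (log2, SE, adjusted p = 0.0149), and the median log2 fold change was -0.12. Over all tested genes 6.57% were called, and nothing is read from a count over 6 genes. Tln1, the gene of the actin-linked adhesion protein talin 1, lies 7754 bases upstream of Tpm2 on the same strand and was at -0.14 ± 0.12 in the authors' deposited table (log2, SE, adjusted p = 0.599) with a mean normalized count of 2136. Car9, a carbonic anhydrase gene 982 bases beyond the 3′ end of Tpm2 on the opposite strand, was at -0.28 ± 0.56 in the authors' deposited table (log2, SE, adjusted p = 0.848) with a mean normalized count of 3.04. The only tested gene within 50 kb of Tpm1 was Lactb, 47106 bases away. It was at 0.32 ± 0.12 in the authors' deposited table (log2, SE, adjusted p = 0.0802), beside 0.33 for Tpm1, and neither was called. Within 50 kb of Tpm3, 0 of 3 tested genes were called, with a median log2 fold change of -0.20. For Tpm4 it was 0 of 3, with a median of -0.11. The antisense genes that overlap Tpm4, Gm26586 and Gm16091, had mean normalized counts of 4.27 and 5.10 and log2 fold changes of 0.14 ± 0.51 and -0.15 ± 0.41 in the authors' deposited table (SE).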
